A study of Homo sapiens with 6 samples.

Results

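The histone genes of SH-SY5Y cells, an established human neuroblastoma line, were followed after depletion of CSA or CSB. The members were the genes whose deposited symbol starts with HIST or with H1F, H2AF, H2BF or H3F, the older histone nomenclature, and 91 of the 32575 listed genes met this rule. They comprised 60 replication-dependent genes of the histone clusters, 13 genes of variant histones, 17 pseudogenes and 1 antisense transcript, H1FX-AS1. Per the labels' protocols, the cells had been transduced with lentivirus encoding a short hairpin RNA to CSA (gene ERCC8), to CSB (gene ERCC6) or a control, and all 3 groups went through puromycin selection and 2 to 3 weeks of culture. The genotype label names the depleted cells CSAmut and CSBmut and the control cells WT; since the protocols describe hairpins, the depleted cells are called knockdowns. Each of the 3 groups had 2 libraries of total RNA made with an Illumina TruSeq RNA kit. The sources do not say whether the libraries of a group were separate transductions, so the p-values measure the spread between libraries, which may be technical.

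Histones package DNA into nucleosomes, which are built from histones H2A, H2B, H3 and H4 and bound between them by the linker histone H1. Most histone protein is made in S phase from intronless genes in a few clusters, whose transcripts usually end in a conserved stem-loop and not in a poly(A) tail. The stem-loop is bound by the protein SLBP and cut by a machinery that includes the U7 snRNP. Variant histones, such as H3.3, H2A.Z and macroH2A, come from genes elsewhere in the genome, are mostly expressed throughout the cell cycle and have ordinary polyadenylated transcripts. CSB remodels chromatin at stalled RNA polymerase and CSA belongs to a ubiquitin ligase complex; the proteins cooperate in transcription-coupled DNA repair.

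The libraries held 19368272 to 26758162 gene-assigned reads, and mitochondrial transcripts took 5.73 to 6.51% of the signal. The deposited value of a gene is its read count divided by 1 size factor per library, called the scaled count here, with no gene length in it. A gene was said to rise or fall where the adjusted p of limma on log2(scaled count + 1) was below 0.05, with adjustment over all 28388 genes tested. Of the histone members, 80 were tested. The hairpin against CSA left ERCC8 at 61.8 and 57.2 scaled counts in the CSA knockdown, against 219 and 217 in the control. The hairpin against CSB left ERCC6 at 258 and 302 in the CSB knockdown, against 615 and 593 in the control. Each hairpin lowered its own target, and the other target did not pass the test in either knockdown. All 12 neuroblastoma marker genes had an entry, with a sum of 1.31e+05 to 1.59e+05 scaled counts per library. HAND2, 1 of them, was at 25082 or more in each library. The 7 fibroblast or mesenchymal genes, taken up again below, had a sum of 12683 to 27275. Of 5 leukocyte genes 2 had an entry in the files, with a sum of 16.2 to 24.1 scaled counts per library, and of 3 endothelial genes 2 had one, with a sum of 4.95 to 16.2. The other leukocyte and endothelial genes, among them CD3E, CD68 and PECAM1, had no entry and were taken as 0. All 4 epithelial genes had an entry, with a sum of 87.7 to 185.

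The processing signal of replication-dependent histone transcripts could be read from the annotation. In GENCODE v29 (GRCh38/hg38), the letters GGNNCTTNTNANNNCC on the transcript strand, a 6-base stem around a 4-base loop, were found in transcripts of 32 of the 60 cluster genes. They were also found in 1 of the 13 variant genes, H2AFX, which encodes the H2A variant phosphorylated at DNA breaks. Of all annotated genes, 0.96% held these letters. The loop read TTTC in 23 of the 32 cluster genes, TTTA in 5, TTTT in 3 and TCTC in 1, HIST1H3E. The sites are shown for the stem-loop genes that the results below turn on, with the arms of the stem in capitals, the loop in lower case between them, and 5 flanking bases on each side.
HIST1H2BD: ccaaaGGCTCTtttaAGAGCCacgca
HIST1H2AC: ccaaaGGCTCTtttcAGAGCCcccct
HIST2H2BE: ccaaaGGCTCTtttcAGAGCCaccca
HIST1H4I: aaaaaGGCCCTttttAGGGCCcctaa
HIST1H3E: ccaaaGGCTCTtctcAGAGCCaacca
HIST3H2A: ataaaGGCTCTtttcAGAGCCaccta
H2AFX: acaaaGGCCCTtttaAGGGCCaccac
On hg38 these stem-loops lie at chr6:26158587-26158602, plus strand (HIST1H2BD), chr6:26124669-26124684, plus strand (HIST1H2AC), chr1:149886188-149886203, minus strand (HIST2H2BE) and chr6:27139654-27139669, plus strand (HIST1H4I). Those of the others lie at chr6:26225596-26225611, plus strand (HIST1H3E), chr1:228457369-228457384, minus strand (HIST3H2A) and chr11:119094898-119094913, minus strand (H2AFX). HIST1H2BD, HIST1H2AC, HIST2H2BE, HIST1H3E and HIST3H2A have the same stem arms, and HIST1H4I shares its arms with H2AFX.

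The cluster genes differed widely in reads, and the annotated 3′ end went with that. Of the 60, 23 have a transcript that runs 100 bases or more past the stem-loop, and they had a median of 222 reads over the 6 libraries and 62.2% of all cluster reads. The 9 genes whose stem-loop transcripts all end within 100 bases of it had a median of 20 reads, although HIST1H2BD, with 1885 reads, is among them. Of its annotated transcripts, HIST1H2BD-202 ends 39 bases past the stem-loop and HIST1H2BD-201 lacks it, so this class describes only part of its annotation. Another 24 genes are annotated with coding sequence alone, and their median was 8 reads. A longer gene model collects more reads, so the levels per kilobase of deposited gene length are the fairer measure. The median level was 14.5 scaled counts per kilobase in the genes running 100 bases or more past the stem-loop, 6.38 in those ending sooner and 2.60 in the genes annotated as coding sequence. HIST1H2BK and HIST1H1C, with 971 and 710 reads, were exceptions among the coding-only genes. Whether reads beyond an annotated end were lost to such genes was not tested.

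**Figure D1:**
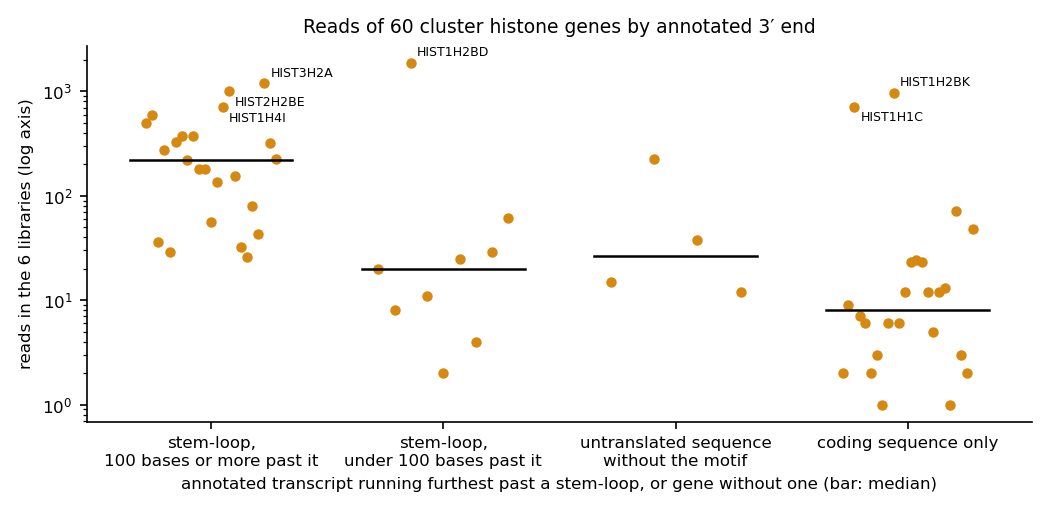
Reads of each of the 60 cluster histone genes over the 6 libraries (vertical axis, log scale), by the annotated transcript that runs furthest past a stem-loop. Genes without the motif are in the groups on the right, and HIST1H2BD is placed by HIST1H2BD-202. Points are genes and bars are medians, which were 222, 20, 26.5 and 8 reads from left to right.

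Cluster transcripts were a small part of the histone signal in all 6 libraries. The 60 cluster genes together had 2314 and 2581 reads in the CSA knockdown, 1417 and 1798 in the CSB knockdown and 1586 and 1708 in the control. The 13 variant genes had 404447 reads over the 6 libraries, against 11404 for the cluster genes. Poly(A) selection is neither stated nor denied in the labels, and its part in this gap was not tested. With such selection, a change in the 3′ end of cluster transcripts could not be told apart from a change in their level.

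The balance between cluster and variant transcripts differed between the groups. The summed scaled count of the cluster genes was 2508 and 2461 in the CSA knockdown, 1560 and 1483 in the CSB knockdown, and 1577 and 1648 in the control. The sum was thus higher in both CSA-knockdown libraries than in any other library, and both CSB-knockdown libraries lay below the control ones. In bulk RNA, fewer cells in a state and less RNA per cell cannot be told apart. For the variant genes the order was the reverse, with sums of 57085 and 59582 in the CSA knockdown, 74427 and 71591 in the CSB knockdown, and 66294 and 65860 in the control.

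Per 100 scaled counts of variant genes there were 4.26 ± 0.186 of cluster genes in the CSA knockdown, 2.08 ± 0.0171 in the CSB knockdown and 2.44 ± 0.0863 in the control (SD, n = 2 each). With each gene's value divided by its length, the ratio per 100 was 14.8 ± 0.545 in the CSA knockdown, 6.94 ± 0.157 in the CSB knockdown and 7.95 ± 0.366 in the control. On the log2 scale the ratio before division by length was 0.80 higher in the CSA knockdown than in the control. In the CSB knockdown it was -0.23 relative to the control and -1.03 relative to the CSA knockdown. Without the 3 cluster genes with most reads, a choice made after the values were seen, these differences were 0.79, -0.26 and -1.05. The groups did not overlap in the ratio, which is a description, since no test is given for a sum over the members.

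**Figure D2:**
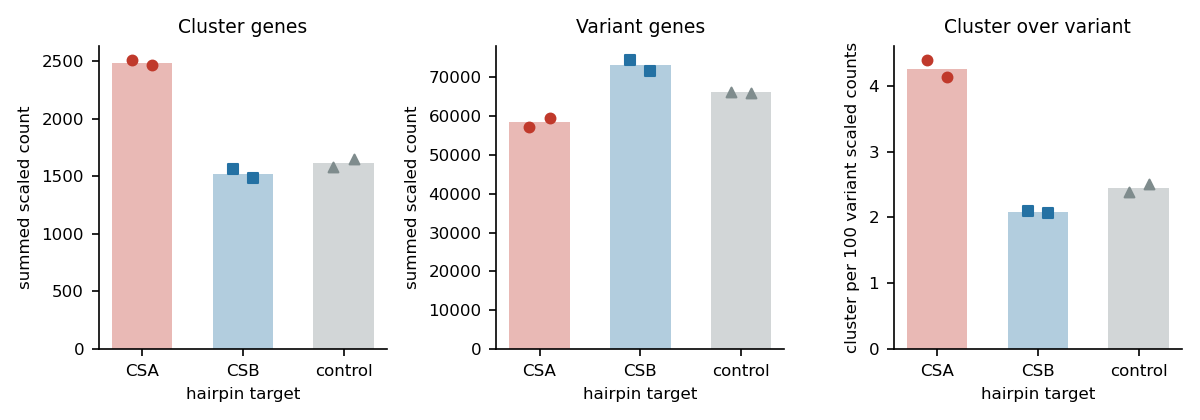
Summed scaled counts of the cluster genes (left) and the variant genes (middle), and cluster per 100 variant scaled counts (right), for libraries with hairpins against CSA, against CSB and control. Points are libraries and bars are means of 2. The CSA-knockdown libraries are highest in the left and right panels and lowest in the middle one.

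Within the cluster genes, H2B transcripts made up 52.6 ± 1.14% of the scaled counts in the CSA knockdown, 52.4 ± 1.29% in the CSB knockdown and 48.3 ± 1.33% in the control (SD, n = 2 each). The linker histone genes made up 5.75 ± 0.183% in the CSA knockdown, 5.69 ± 0.338% in the CSB knockdown and 8.52 ± 0.704% in the control. HIST1H1C alone held 710 of the 743 reads of these 5 genes, so the linker values are mainly those of 1 gene. The linker share was lower in all 4 knockdown libraries than in both control libraries, but the sums behind it differed. The linker genes summed to 143 ± 6.46 scaled counts in the CSA knockdown, 86.7 ± 8.22 in the CSB knockdown and 137 ± 7.13 in the control, so the sum was lower than the control in the CSB knockdown alone. Reads were also uneven between the clusters. The 45 HIST1 genes between positions 26017085 and 27893843 of chromosome 6 had 8164 reads, and the 11 HIST2 genes between 149782689 and 149887916 of chromosome 1 had 1425. The 3 HIST3 genes, on chromosome 1 between 228424845 and 228460470, had 1589 reads, and HIST4H4 on chromosome 12 had 226.

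Cluster genes from several histone types rose in the CSA knockdown. Of 54 cluster genes tested, 11 rose and none fell in the CSA knockdown relative to the control. At an unadjusted p below 0.05, limma gave 14 higher and 1 lower, and neither edgeR nor DESeq2 called a fall. Over all genes tested, 18.8% were called in this comparison, 8.37% as rises and 10.4% as falls. The median log2 fold change was 0.43 over the 54 cluster genes and 0.00 over all genes. Among the 20 cluster genes with at least 100 reads, 9 rose and 19 had a positive fold change, with a median of 0.56. Of the 34 tested genes with fewer reads, 2 rose.

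HIST1H2BD, an H2B gene of the large cluster (chr6:26158146-26171349), had the most reads of the cluster genes. It was at 441 and 425 scaled counts in the CSA knockdown, 285 in both CSB-knockdown libraries, and 194 and 224 in the control. The 3 groups did not overlap, and the level was highest in the CSA knockdown. Its log2 fold change in the CSA knockdown was 1.05 ± 0.09 (SE), with an adjusted p of 7.31e-06. HIST1H2BK (chr6:27146418-27146798), another H2B gene, was at 231 and 235 in the CSA knockdown, 148 and 125 in the CSB knockdown, and 110 and 112 in the control. The CSA-knockdown libraries stood apart and the CSB-knockdown ones lay just above the control. Its log2 fold change in the CSA knockdown was 1.06 ± 0.12, with an adjusted p of 5.95e-05.

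HIST1H2AC (chr6:26124145-26139116), an H2A gene, had the largest rise among the cluster genes with at least 100 reads. It was at 125 and 155 scaled counts in the CSA knockdown, 56.2 and 61.0 in the CSB knockdown, and 47.7 and 50.2 in the control. Its log2 fold change in the CSA knockdown was 1.49 ± 0.17, with an adjusted p of 7.19e-05. HIST1H4I (chr6:27138588-27139881), an H4 gene, was at 153 and 179 in the CSA knockdown, 101 and 88.3 in the CSB knockdown, and 95.5 and 80.1 in the control. For both genes the CSB-knockdown libraries lay within or close to the control range, while the CSA-knockdown libraries lay well above it. The log2 fold change of HIST1H4I in the CSA knockdown was 0.91 ± 0.15, with an adjusted p of 0.00103.

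HIST2H2BE (chr1:149842204-149886652), the H2B gene with most reads outside the chromosome 6 cluster, was at 233 and 203 in the CSA knockdown, 117 and 134 in the CSB knockdown, and 127 and 172 in the control. Its rise in the CSA knockdown, 0.55 ± 0.15 on the log2 scale, had an adjusted p of 0.0221. The H3 gene HIST1H3E was at 80.2 and 84.9 in the CSA knockdown, 63.9 and 50.3 in the CSB knockdown, and 47.7 and 45.3 in the control. It rose by 0.81 ± 0.19 in the CSA knockdown, with an adjusted p of 0.00996. The H2B genes HIST1H2BG, HIST1H2BJ and HIST1H2BE rose as well, by 0.77, 0.85 and 1.04 on the log2 scale.

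Not every abundant cluster gene passed the test in the CSA knockdown. HIST1H1C, which encodes a linker histone, was at 143 and 137 scaled counts in the CSA knockdown, against 135 and 124 in the control, with a log2 fold change of 0.11 ± 0.13. HIST3H2A, an H2A gene of the HIST3 cluster, was at 232 and 244 in the CSA knockdown, against 196 and 222 in the control, and its log2 fold change was 0.19 ± 0.11. The H2B gene HIST1H2BH had a fold change of -0.13 ± 0.20 and the H2A gene HIST1H2AG one of 0.27 ± 0.17. None of these 4 passed the test, with adjusted p between 0.269 and 0.718. For HIST1H1C, HIST3H2A and HIST1H2AG both CSA-knockdown libraries still lay above both control libraries, and for HIST1H2BH they did not. By histone type, 6 of 16 tested H2B genes, 2 of 10 H2A, 2 of 13 H3, 1 of 11 H4 and 0 of 4 H1 genes rose. The median log2 fold change was 0.49 for H2B, 0.38 for H2A, 0.33 for H3, 0.53 for H4 and -0.56 for H1 genes. The median gene had 222 reads for H2B, 7 for H2A, 32 for H3, 43 for H4 and 9 for H1. The part that reads had in the counts by type was not tested. Leaving out any 1 of the 6 libraries reduced the 11 rises to 3 or 4, and HIST1H2BD, HIST1H2AC and HIST1H2BK rose in each of those 6 fits. DESeq2 on the recovered reads called 7 rises, with none falling.

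**Figure D3:**
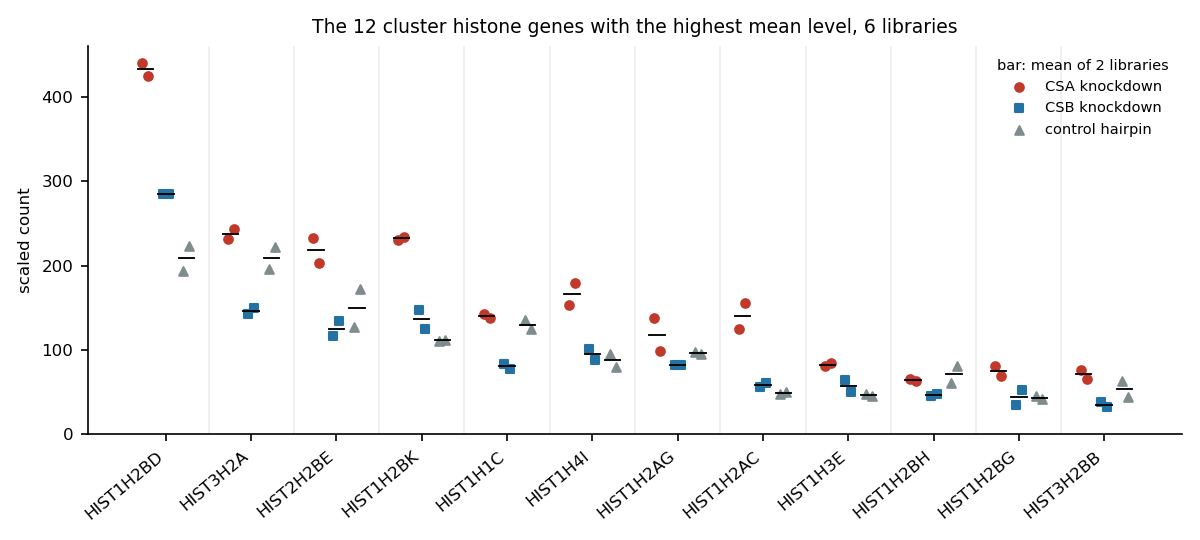
Scaled counts in each library (vertical axis) of the 12 cluster histone genes with the highest mean, for the CSA knockdown, the CSB knockdown and the control. Bars are means of 2. For every gene shown but HIST1H2BH, both CSA-knockdown libraries lie above all other libraries, in some cases by little.

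Among the variant histone genes, H2AFX and H2AFV had the largest falls after CSA depletion. Of the 12 tested, 5 fell and none rose in the CSA knockdown by limma, with a median log2 fold change of -0.21 and 4 of the 12 above 0. At an unadjusted p below 0.05, 6 were lower and 1 was higher. edgeR with TMM and DESeq2 each gave 6 falls and no rise, and edgeR with upper-quartile scaling gave 6 falls and 1 rise. The 9 variant genes with a mean of at least 50 scaled counts carried 16067 to 118330 reads each, and all genes with 10000 reads or more were called in 42.9% of cases in this comparison. All 5 calls were among the 9 variant genes, so the share called among them lay above the 42.9%. Over the 12 tested it was 41.7%, but the other 3 had 36 reads or fewer. No test was run for the class, so the count is no result about variants as a class.

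H2AFX was at 1991 and 1945 scaled counts in the CSA knockdown, 2761 and 2808 in the CSB knockdown, and 3052 and 3097 in the control. The 3 groups did not overlap, with the CSA knockdown far below the others. It fell by 0.64 ± 0.05 on the log2 scale in the CSA knockdown, with an adjusted p of 2.18e-06. In the CSB knockdown its log2 fold change was -0.14 ± 0.05, which did not pass the test at an adjusted p of 0.0527. It was the only variant gene with the stem-loop letters. Of the tested cluster genes with them, 7 of 23 running 100 bases or more past the stem-loop rose in the CSA knockdown. Of those ending sooner 2 of 8 rose, and none of either kind fell. Over all genes tested 8.37% rose. With 1 variant gene holding the letters, no comparison by stem-loop was made.

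H2AFV and H2AFZ encode H2A.Z, the variant found at promoters. H2AFV was at 4332 and 4515 in the CSA knockdown, 5049 and 4978 in the CSB knockdown, and 6817 and 6773 in the control. H2AFZ was at 3472 and 3230 in the CSA knockdown, 3555 and 3312 in the CSB knockdown, and 4294 and 4413 in the control. Both were lower in all 4 knockdown libraries than in either control library. H2AFV fell by 0.62 ± 0.05 in the CSA knockdown and by 0.44 ± 0.05 in the CSB knockdown, with adjusted p of 2.37e-06 and 3.14e-05. H2AFZ fell by 0.38 ± 0.06 in the CSA knockdown and by 0.34 ± 0.06 in the CSB knockdown, with adjusted p of 0.000418 and 0.000695. These comparisons share the control libraries, so the fall in both is not independent evidence.

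The genes for H3.3, the H3 variant placed outside replication, differed from each other although H3F3A and H3F3B encode the same protein. H3F3A was at 10998 and 9869 in the CSA knockdown, 13374 and 12877 in the CSB knockdown, and 12036 and 12116 in the control. H3F3B was at 17159 and 18491 in the CSA knockdown, 23225 and 22136 in the CSB knockdown, and 17243 and 17216 in the control. Both were highest in the CSB knockdown, while the CSA knockdown was low only for H3F3A. H3F3A fell by 0.21 ± 0.06 in the CSA knockdown (adjusted p 0.0206) and had a fold change of 0.12 ± 0.06 in the CSB knockdown (adjusted p 0.164). H3F3B rose by 0.40 ± 0.05 in the CSB knockdown (adjusted p 0.000191) and had a fold change of 0.05 ± 0.05 in the CSA knockdown (adjusted p 0.621). The fall of H3F3A was lost in 6 of 16 alternative analyses, 5 of which left out a library.

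The replacement linker histones H1F0 and H1FX also separated the knockdowns. H1F0, which accumulates in cells leaving the cell cycle, was at 6532 and 7788 in the CSA knockdown, 11500 and 10855 in the CSB knockdown, and 8284 and 8234 in the control. It rose by 0.44 ± 0.07 in the CSB knockdown, with an adjusted p of 0.000738, and its fold change of -0.21 ± 0.07 in the CSA knockdown missed the threshold at 0.0604. H1FX was at 3125 and 3662 in the CSA knockdown, 5123 and 5000 in the CSB knockdown, and 4625 and 4289 in the control. The CSA-knockdown libraries were the lowest for both genes. H1FX fell by 0.40 ± 0.07 in the CSA knockdown, with an adjusted p of 0.00154, and in the CSB knockdown its fold change was 0.18 ± 0.07 with an adjusted p of 0.0803.

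MacroH2A, an H2A variant with a large extra domain, is encoded by H2AFY and H2AFY2, and the genes differed in direction in the CSB knockdown. H2AFY was at 6144 and 6505 in the CSA knockdown, 5943 and 5797 in the CSB knockdown, and 6689 and 6658 in the control. H2AFY2 was at 3324 and 3566 in the CSA knockdown, 3888 and 3815 in the CSB knockdown, and 3246 and 3051 in the control. In the CSB knockdown H2AFY fell by 0.19 ± 0.05 (adjusted p 0.0155) and H2AFY2 rose by 0.29 ± 0.05 (adjusted p 0.00186). In the CSA knockdown neither passed the test, with fold changes of -0.08 ± 0.05 and 0.13 ± 0.05. Of the variant genes with few reads, H2AFJ had 36 over all 6 libraries, H3F3C 18 and H1FNT 6, none of them called, and H2AFB3 had 2 and was not tested.

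**Figure D4:**
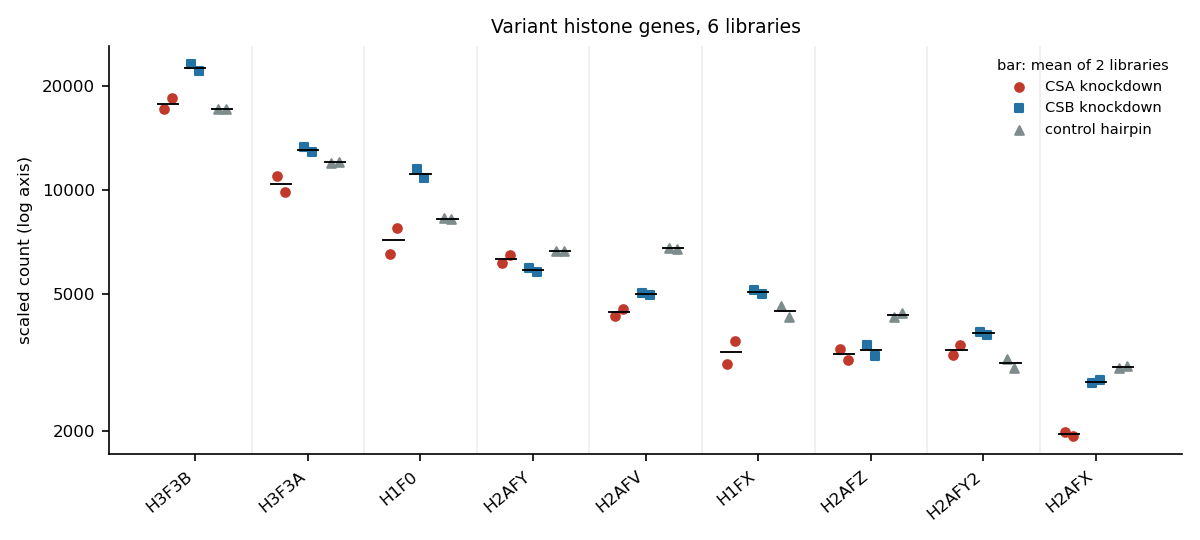
Scaled counts in each library (vertical axis, log scale) of the 9 variant histone genes with a mean of at least 50, for the CSA knockdown, the CSB knockdown and the control. Bars are means of 2. H2AFX is lowest in the CSA knockdown, H2AFV and H2AFZ are lower in both knockdowns than in the control, and H3F3B and H1F0 are highest in the CSB knockdown.

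Levels of different variant genes can be set against each other only per kilobase. Over the 6 libraries H1F0 and H3F3A averaged 3782 and 3776 scaled counts per kilobase, H3F3B 3137 and H1FX 2856. H2AFY2, H2AFX and H2AFZ followed at 1758, 1616 and 1612, then H2AFV at 1139 and H2AFY at 355. The cluster genes with the highest such levels were HIST1H2BK at 420, HIST1H2BD at 355, HIST3H2A at 221 and HIST1H1C at 182 scaled counts per kilobase. No cluster gene thus reached the level of H2AFV, while HIST1H2BK and HIST1H2BD lay at or above H2AFY, whose deposited length of 17730 bases is the longest.

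In the CSB knockdown relative to the control, few cluster genes passed the test, and those that did went both ways. Of 54 tested, 2 rose and 2 fell, and the median log2 fold change was -0.11, against 0.10 over all genes. Without regard to the test, 33 were lower and 21 higher. At an unadjusted p below 0.05, limma gave 8 lower and 3 higher. Over all genes 23.6% were called, 14.8% as rises and 8.86% as falls, so the 4 calls are a smaller share than the background. HIST1H2BD rose by 0.45 ± 0.09, with an adjusted p of 0.00339. HIST1H1C was at 83.7 and 76.7 scaled counts in the CSB knockdown and 135 and 124 in the control, and fell by 0.69 ± 0.13, with an adjusted p of 0.00226. HIST3H2A was at 143 and 149 in the CSB knockdown and 196 and 222 in the control, and fell by 0.51 ± 0.11, with an adjusted p of 0.00388. The libraries of the CSB knockdown and the control did not overlap for any of these 3 genes. The genes were picked by a test on the same libraries, so this adds no support.

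The fourth call in that comparison, the rise of HIST2H3A, rests on few reads. The other scalings gave a different split among the cluster genes, with 2 rises and 5 falls by edgeR with TMM, the same by edgeR with upper-quartile scaling, and 0 rises and 2 falls by DESeq2. Rises were 62.5% of all calls across all genes in the main analysis, 50.1% by edgeR with TMM and 43.4% by DESeq2, so the directions in this comparison depend on the scaling. Leaving out 1 library gave 0 to 4 calls among the cluster genes, and no call held in all 6 such fits. Among the 12 variant genes tested, 3 rose and 3 fell, as described above gene by gene. The 6 calls are a larger share than the 23.6% of all genes. Of the 12, 3 had 36 reads or fewer and were not called. Among the other variant genes tested, the share called also lay above the 56.9% of genes with 10000 reads or more. No test was run for the class. H2AFV alone kept its call whichever library was left out.

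Between the knockdowns, every cluster gene that passed the test was lower in the CSB knockdown. Of 54 cluster genes, 14 were lower in the CSB knockdown than in the CSA knockdown and none was higher, with a median log2 fold change of -0.54, against 0.09 over all genes. At an unadjusted p below 0.05, 22 were lower and 1 was higher, and neither edgeR nor DESeq2 called a cluster gene higher. Over all genes 29.4% were called, 18.1% as rises and 11.3% as falls in the CSB knockdown. The 25.9% of cluster genes called was a smaller share, but all of these calls were falls. All 20 cluster genes with at least 100 reads had lower values in the CSB knockdown, and 12 of them passed the test. HIST1H2AC had a log2 fold change of -1.24 ± 0.17, with an adjusted p of 0.000149. HIST3H2A and HIST1H1C, which did not pass the test in the CSA knockdown, had fold changes of -0.70 ± 0.11 and -0.80 ± 0.13 between the knockdowns. Without each library in turn 6 to 10 cluster genes were called, and HIST1H2AC, HIST3H2A, HIST1H1C and HIST1H2BK were called each time. By histone type, 8 of 16 H2B genes, 3 of 10 H2A, 2 of 11 H4, 1 of 4 H1 and 0 of 13 H3 genes were lower.

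H1F0, H1FX and H2AFX had the largest called differences between the knockdowns among the variant genes. Of 12 tested, 7 were higher and none lower by limma, with a median log2 fold change of 0.26, and 7 were higher and 1 lower at an unadjusted p below 0.05. The 58.3% called is taken over 12 genes, of which 3 had 36 reads or fewer and were not called. Among the other variant genes tested, the share called lay above the 60.7% among all genes with 10000 reads or more. No test was run for the class, so the count is no result about variants as a class. With edgeR under either scaling, DESeq2 or equal library totals, 5 were higher and 1 lower. The difference of H1F0 was 0.65 ± 0.07 with an adjusted p of 1.94e-05, followed by H1FX at 0.58 ± 0.07 and H2AFX at 0.50 ± 0.05. H2AFX was the variant gene whose call held whichever library was left out, and without a library the number of calls ranged from 1 to 7. The smallest calls were those of H2AFV, 0.18 ± 0.05, and H2AFY2, 0.16 ± 0.05. The call of H2AFV was lost in 8 and that of H2AFY2 in 13 of the 16 alternative analyses.

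**Figure D5:**
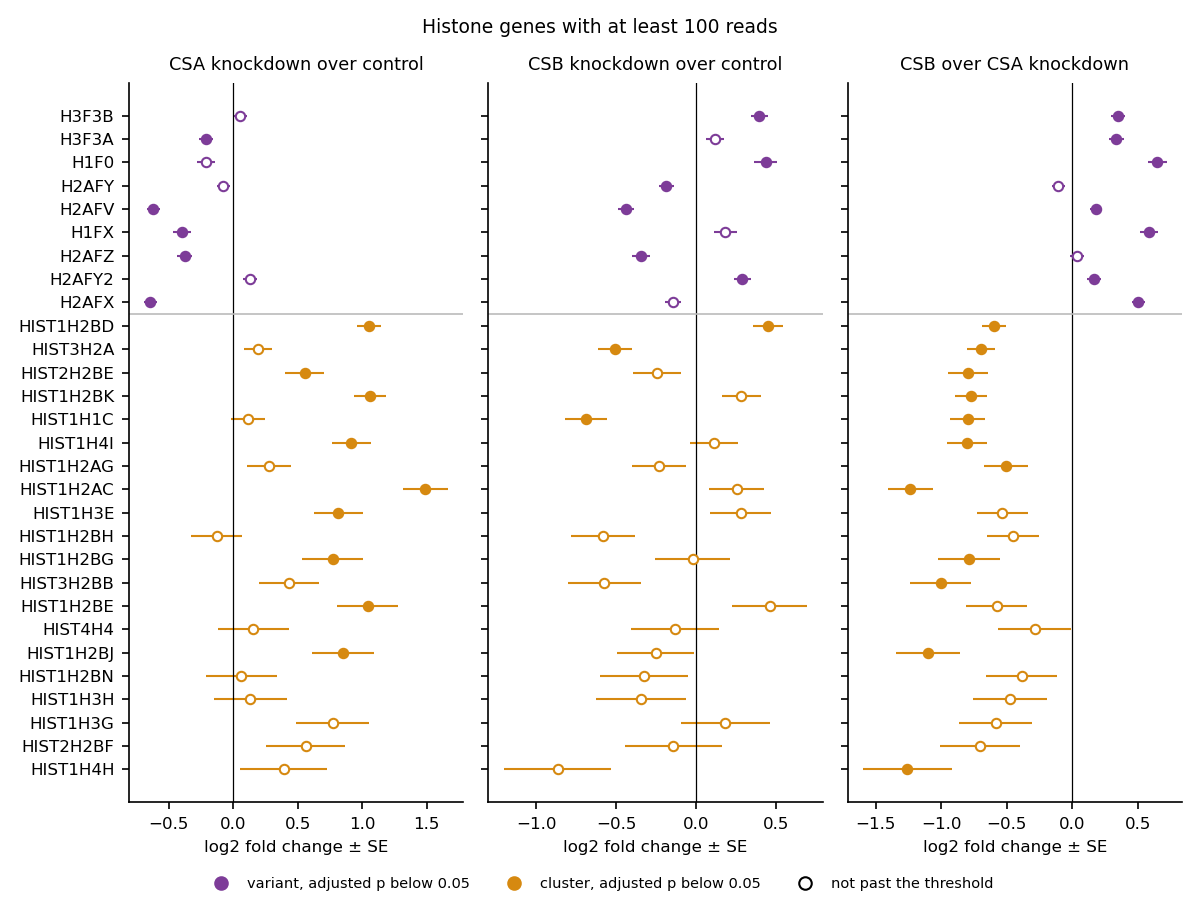
Log2 fold changes with their standard errors (horizontal axes) of the variant and cluster histone genes with at least 100 reads, for the CSA knockdown over control, the CSB knockdown over control and the CSB over the CSA knockdown. Filled points passed the test and open points did not. Of the 20 cluster genes, 19 lie right of zero in the left panel and all 20 lie left of it in the right panel.

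Many cluster genes had too few reads to follow. Of the 60, 16 had fewer than 10 reads over all 6 libraries, 6 were not tested, and the median was 29 reads. HIST2H3A, an H3 gene, had 10 and 8 reads in the CSA knockdown, 6 and 7 in the CSB knockdown, and 1 and 0 in the control. Scaled for depth, its reads were 18.6 times those of the control in the CSA knockdown, with an exact 95% interval of 2.94 to 777, and 12.5 times in the CSB knockdown, with an interval of 1.88 to 532. HIST2H2AA4, an H2A gene, had 6 and 13 reads in the CSA knockdown, 3 and 4 in the CSB knockdown, and 2 and 1 in the control. In the CSA knockdown its ratio to the control was 6.56, with an interval of 1.93 to 34.6. HIST1H2BF had 2 and 1 reads in the CSB knockdown and 4 and 15 in the CSA knockdown, a ratio of 0.147 with an interval of 0.0278 to 0.499. These intervals cover counting error only.

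The HIST2 genes with near-identical copies are uncertain, because no source used here states how reads that match several copies were counted. HIST2H3A (chr1:149852619-149854274) has the near-identical copies HIST2H3C and HIST2H3D, and HIST2H2AA4 (chr1:149851061-149851624) has HIST2H2AA3. Both called genes also lie, on the opposite strand, within the annotated span of HIST2H2BE, and the strand setting of the counting is not known. The copies had few reads as well: HIST2H3C had 6 and 7 in the CSA knockdown, 3 and 6 in the CSB knockdown, and 4 and 0 in the control. HIST2H3D had 12 and 12 reads in the CSA knockdown, 4 and 8 in the CSB knockdown, and 6 and 6 in the control. HIST2H4A and HIST2H4B, another such pair, had 80 and 43 reads in all and were not called. Without the near-identical copies the log2 difference in the cluster-to-variant ratio was 0.79 for the CSA knockdown over the control and -0.24 for the CSB knockdown over the control.

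Several H2A and H2B genes lie head to head, and some of these pairs are set side by side here. HIST3H2A (chr1:228456979-228457873, minus strand) faces HIST3H2BB (chr1:228458107-228460470, plus strand). HIST3H2BB was at 75.9 and 65.8 scaled counts in the CSA knockdown, 37.4 and 32.2 in the CSB knockdown, and 62.7 and 43.4 in the control. Both genes were lower in the CSB knockdown than in the CSA knockdown, HIST3H2BB with an adjusted p of 0.00508. HIST1H2BC (chr6:26114873-26123926, minus strand) faces HIST1H2AC, but had far fewer reads, with 9 and 8 in the CSA knockdown, 3 and 1 in the CSB knockdown, and 7 and 8 in the control. It was called lower in the CSB than in the CSA knockdown, with an adjusted p of 0.0291, and in the CSA knockdown relative to the control its log2 fold change was 0.21 ± 0.55. HIST1H2BJ (minus strand) faces HIST1H2AG (plus strand). In the CSA knockdown HIST1H2BJ rose by 0.85, while HIST1H2AG, at 0.27, was not called. Both were called lower in the CSB than in the CSA knockdown. HIST1H2BK, with 971 reads, faces HIST1H2AH, which had 2.

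Among the 17 pseudogenes, H3F3AP4 held 10598 of the 11878 reads. Its scaled count was 1796 and 1385 in the CSA knockdown, 1939 and 1756 in the CSB knockdown, and 1800 and 1726 in the control, so the groups overlapped. It is a processed copy of H3F3A, and reads of the parent that were assigned to it cannot be told apart from its own. Of the 13 pseudogenes tested, 1 rose in the CSA knockdown, HIST2H2BD, with 34 and 39 reads in the CSA knockdown, 15 and 20 in the CSB knockdown, and 11 and 18 in the control. None was called in the CSB knockdown relative to the control by limma, edgeR or DESeq2, and 1 was lower at an unadjusted p below 0.05 by limma. Between the knockdowns HIST2H2BD and HIST2H2BC were lower in the CSB knockdown. H1FX-AS1, which overlaps the H1FX locus on the other strand, had 68 to 131 reads per library and was not called in any comparison.

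Promoter sequence is shown for the 3 cluster genes whose rise in the CSA knockdown held in every fit without 1 library, and for H2AFX, which fell most among the variants. The RefSeq windows (GRCh38.p14) span 250 bases before and 50 after the annotated start, and 51 of the 60 cluster genes and 11 of the 13 variant genes had one. Capitals mark 3 motifs searched on both strands, so that each may also stand as its reverse complement. They are CCAAT, bound by the factor NF-Y, a run reading TATAA, which overlaps its own reverse complement at some sites, and the octamer ATTTGCAT, a known element of H2B promoters.
HIST1H2BD: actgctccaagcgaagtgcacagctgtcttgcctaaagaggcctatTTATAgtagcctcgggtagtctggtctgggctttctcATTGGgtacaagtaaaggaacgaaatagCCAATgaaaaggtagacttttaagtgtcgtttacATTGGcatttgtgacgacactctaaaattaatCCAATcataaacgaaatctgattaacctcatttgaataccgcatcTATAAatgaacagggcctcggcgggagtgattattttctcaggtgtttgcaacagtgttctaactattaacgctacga
HIST1H2BK: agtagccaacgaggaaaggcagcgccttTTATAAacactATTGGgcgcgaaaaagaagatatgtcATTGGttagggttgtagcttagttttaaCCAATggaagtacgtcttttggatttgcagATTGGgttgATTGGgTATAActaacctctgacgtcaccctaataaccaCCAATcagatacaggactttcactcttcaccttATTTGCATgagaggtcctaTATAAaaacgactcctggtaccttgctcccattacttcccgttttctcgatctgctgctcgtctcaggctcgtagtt
HIST1H2AC: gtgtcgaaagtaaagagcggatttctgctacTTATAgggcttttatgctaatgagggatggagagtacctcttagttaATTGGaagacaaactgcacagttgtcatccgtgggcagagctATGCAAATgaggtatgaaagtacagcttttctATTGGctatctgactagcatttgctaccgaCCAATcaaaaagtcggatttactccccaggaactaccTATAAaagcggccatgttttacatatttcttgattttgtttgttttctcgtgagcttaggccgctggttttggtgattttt
H2AFX: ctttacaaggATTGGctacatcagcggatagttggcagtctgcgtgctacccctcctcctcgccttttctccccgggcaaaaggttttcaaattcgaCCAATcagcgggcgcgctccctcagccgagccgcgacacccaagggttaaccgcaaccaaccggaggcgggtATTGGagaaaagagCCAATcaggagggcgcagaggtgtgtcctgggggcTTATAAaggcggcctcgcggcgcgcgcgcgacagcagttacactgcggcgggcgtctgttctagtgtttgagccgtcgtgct
The windows lie at chr6:26157871-26158170, plus strand (HIST1H2BD), chr6:27146809-27147108, minus strand (HIST1H2BK), chr6:26123922-26124221, plus strand (HIST1H2AC) and chr11:119095416-119095715, minus strand (H2AFX). CCAAT occurred in 42 of 51 cluster windows, TATAA in 46 and the octamer in 20. Over all 27305 RefSeq windows of this length the shares were 35.7% for CCAAT, 21.1% for TATAA and 1.80% for the octamer. Of the 11 variant windows, 8 held CCAAT, 4 TATAA and 1 the octamer.

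The letters followed the histone type. The octamer was in 13 of 17 H2B windows and 7 of 9 H2A windows, and in none of the H1, H3 or H4 ones. CCAAT was in all H1, H2A, H2B and H3 windows and in 2 of the 11 for H4. Of the 10 windows of cluster genes that rose in the CSA knockdown, all 10 held CCAAT and TATAA and 6 held the octamer. Of the 36 windows of tested cluster genes that were not called, 28 held CCAAT, 31 TATAA and 12 the octamer. The genes that rose were mostly H2B genes, so these shares cannot be told apart from the histone type. A match is a string of letters and not a measured binding site.

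SLBP, NCBP1, NCBP2 and CPSF2 fell in both knockdowns among the genes that make and process histone transcripts. Of 21 such genes, 1 rose and 5 fell in the CSA knockdown, and 1 rose and 7 fell in the CSB knockdown. The 28.6% and 38.1% called lie between the shares of all genes, 18.8% and 23.6%, and those of genes with 10000 reads or more, 42.9% and 56.9%. SLBP, the stem-loop binding protein, was at 1632 and 1595 scaled counts in the CSA knockdown, 1686 and 1623 in the CSB knockdown, and 1919 and 1887 in the control. It fell by 0.24 ± 0.05 in the CSA knockdown and by 0.20 ± 0.05 in the CSB knockdown, with adjusted p of 0.00655 and 0.0136. Without 1 library these calls were lost in 3 and 4 of the 6 fits. NPAT and CASP8AP2, which act at the histone clusters, and LSM10 and ZNF473, parts of the U7 processing machinery, were not called in either knockdown. LSM11, another U7 component, rose by 0.32 ± 0.09 in the CSB knockdown, a call lost in 8 of 16 alternatives, among them DESeq2, equal totals and each fit without 1 library. The largest change in this list, picked like NCBP1 and NCBP2 after its values were seen, was that of CPSF2, a subunit of the cleavage complex. It was at 904 and 886 in the CSA knockdown, 1253 and 1242 in the CSB knockdown, and 1646 and 1577 in the control, and fell by 0.85 ± 0.06 and 0.37 ± 0.06 in the CSA and CSB knockdowns.

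ASF1B, CHAF1B, NASP and ANP32E, among the chaperones that carry histones to and from DNA, fell in both knockdowns. Of 28 tested, 3 rose and 10 fell in the CSA knockdown, and 2 rose and 14 fell in the CSB knockdown. The 46.4% and 57.1% called are close to the 42.9% and 56.9% among all genes with 10000 reads or more. ASF1B fell by 0.56 ± 0.07 in the CSA knockdown and by 0.35 ± 0.07 in the CSB knockdown. NASP, which holds soluble H3 and H4, fell by 0.22 ± 0.05 in the CSA knockdown and by 0.36 ± 0.05 in the CSB knockdown. CHAF1B, of the replication-coupled assembly factor, fell by 0.25 ± 0.07 in the CSA knockdown and by 0.37 ± 0.07 in the CSB knockdown. The call of CHAF1B in the CSA knockdown was lost by DESeq2 and in each fit without 1 library, and those of NASP in the CSA knockdown and ASF1B in the CSB knockdown in 5 and 4 of those 6 fits. ANP32E, which removes H2A.Z from chromatin, was at 3457 and 3400 in the CSA knockdown, 3627 and 3438 in the CSB knockdown, and 5117 and 5089 in the control. It fell by 0.57 ± 0.05 in the CSA knockdown and by 0.53 ± 0.05 in the CSB knockdown, alongside H2AFV and H2AFZ.

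The chaperones of H3.3 differed among themselves. DAXX was at 3512 and 3710 in the CSA knockdown, 2311 and 2304 in the CSB knockdown, and 3833 and 3858 in the control, and fell by 0.74 ± 0.05 in the CSB knockdown with an adjusted p of 8.34e-07. HIRA had fold changes of -0.08 ± 0.16 in the CSA knockdown and 0.10 ± 0.16 in the CSB knockdown and was not called. For the centromeric H3 variant, CENPA fell by 0.38 ± 0.08 in the CSA knockdown, and its chaperone HJURP fell by 0.64 ± 0.06 there. The call of CENPA was lost in 5 of the 6 fits without 1 library. Neither was called in the CSB knockdown, with fold changes of -0.12 ± 0.08 for CENPA and 0.16 ± 0.06 for HJURP.

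Genes of DNA replication mostly fell in both knockdowns. Of 38 S-phase genes, such as those of the MCM helicase and the enzymes of nucleotide synthesis, 1 rose and 30 fell in the CSA knockdown, with a median log2 fold change of -0.34. The CSB knockdown had 2 rises and 25 falls, with a median of -0.27. The 81.6% called in the CSA knockdown and 71.1% in the CSB knockdown compare with 42.9% and 56.9% among all genes with 10000 reads or more. Between the knockdowns 13 were higher and 5 lower in the CSB knockdown, with a median of 0.04. The 7 fibroblast or mesenchymal marker genes also differed between the groups, with summed scaled counts of 12683 and 13000 in the CSA knockdown, 27137 and 27275 in the CSB knockdown, and 18578 and 17346 in the control. None of the 7 was at 0, all 7 were higher in the CSB than in the CSA knockdown by the test, 4 fell in the CSA knockdown and 5 rose in the CSB knockdown relative to the control. The part that S-phase content or these marker genes had in the histone results was not tested.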

How the data were processed

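RNA was sequenced from 6 libraries of SH-SY5Y cells, 2 each with a hairpin against CSA, against CSB and control. FastQC, HISAT2 2.0.4 and the hg38 build are named per the submitters' processing notes. How reads were counted, with which strand setting and annotation, and how they were normalized, were not given in the sources used here. Per the file headers the deposited columns hold FPKM, but every value is a whole multiple of the smallest in its library (tolerance 0.01 of that step), so the deposited unit is a signal: read counts divided by 1 size factor per library, here the scaled count. A gene without an entry was taken as 0. Reads were recovered by division by the smallest value, and gene lengths are those of the deposited tables.

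The test took genes whose scaled counts averaged 1 or more in any group and used limma (3.58.1, R 4.3.3), with a mean-variance trend on log2(scaled count + 1), the 3 groups in 1 fit with 3 residual degrees of freedom, and Benjamini-Hochberg adjustment over all genes tested. Adding 1 understates the change of genes with few reads. Fits were tested on simulated data. Alternatives were edgeR (4.0.16) quasi-likelihood with TMM or upper-quartile scaling and DESeq2 (1.42.0) on the recovered reads, equal library totals, pseudocounts, filters, 2-group fits, a replicate block and fits without each library. Libraries of a group differed beyond sampling noise, so none was merged.

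The members and gene lists were chosen with earlier results of these data known. Named were variant genes averaging 50 or more in a group, the 12 cluster genes with the highest mean, the 3 largest rises and falls per comparison, and selected histone-processing and chaperone genes; others were picked after their values were seen. Stem-loops were searched in GENCODE v29 transcripts and promoters in RefSeq windows; 85 of 91 members matched a current symbol.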

Additional observations from a re-analysis of the deposited data

How the results depend on the processing

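For the called members that met the naming rule above, the direction was kept in every alternative that gave a value. For the called members HIST1H2BJ, HIST1H2BE, HIST2H2BD and HIST2H2BC, which did not meet it, this was not checked. In the CSB knockdown relative to the control, the 4 calls among cluster genes became 7 by edgeR with either TMM or upper-quartile scaling and 2 by DESeq2. In the CSA knockdown, 11 calls became 7 by DESeq2. The cause was not tested. Divided by gene length, the log2 difference in the cluster-to-variant ratio moved to 0.89 for the CSA knockdown over the control and to -1.09 for the CSB over the CSA knockdown.

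Without each library in turn, the calls among cluster genes were 3 to 4 for the CSA knockdown over control, 0 to 4 for the CSB knockdown over control, and 6 to 10 for the CSB over the CSA knockdown. Among variant genes they were 2 to 4, 1 to 8 and 1 to 7. In these fits an arm has 1 library, assumed to vary like the other groups. The ratio differences ranged from 0.76 to 0.85, from -0.26 to -0.19 and from -1.08 to -0.99.

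Libraries that share a replicate number did not deviate together (r between -0.04 and -0.03 over 13397 genes). With a replicate block the calls were 11, 4 and 14 among cluster genes and 5, 6 and 6 among variant genes in those comparisons, against 7 variant calls without it in the last. Depth limits the cluster genes: 40 of 60 had fewer than 100 reads.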
